A study of Mus musculus with 8 samples.

Results

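*A2m* (ENSMUSG00000030111.8) was examined as a single gene of the 43309 in a count table of mouse embryonic stem cells (mESCs) that lack the zinc finger protein ZBTB24. It was chosen by its KO to WT ratio of counts, which was above 1 at both cell inputs, so those ratios are given as a description and without a test. The table holds 8 libraries in 4 groups of 2, which were *Zbtb24* knockout (1lox/1lox, KO) and *Zbtb24* wild-type (2lox/+, WT) mESCs, each at 100 or 1000 cells. All lines were of strain J1 (129SV), grew on gelatin without feeders in medium with serum, and were lysed directly for the SMARTer Ultra Low RNA Kit v3 and a Nextera library. Amplification took 10 PCR cycles for 1000 cells (about 10 ng of RNA) and 18 for 100 cells (about 1 ng), so cell number and cycle number cannot be told apart. The lines are clones, and the sources used here do not state which clone gave which library, so n = 2 describes labelled replicates and p-values measure only the spread between them, which may be technical.

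*A2m* encodes an alpha-2-macroglobulin, a large secreted glycoprotein. It holds a bait region that many kinds of protease can cut, and a reactive thioester that is exposed when the bait is cut. The protein then closes around the protease and binds it covalently, and the complex is taken up through receptors of the LDL receptor family. Alpha-2-macroglobulin also carries several growth factors and cytokines, and it belongs to the same protein family as complement component C3. Pluripotent cells are not among the tissues it is known for.

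The gene lies on chromosome 6 of GRCm38, from 121635376 to 121679227 on the plus strand, and is annotated as protein-coding. Its longest coding transcript has 36 exons, 4605 bases and a coding sequence of 4422 bases. Close relatives lie beside it (*Mug1* and *Mug2*, the murinoglobulins) or elsewhere on chromosome 6 (*Pzp*, pregnancy zone protein), and reads that fit more than 1 gene were discarded before counting. The stretch that encodes the thioester was compared among the 4 genes to show how far a read can tell them apart. In *A2m* it lies in exon 24 (chr6:121668081-121668140, plus strand, GRCm38, GENCODE M21 transcripts). Capitals mark the 15 bases of the thioester motif in *A2m*, and in the other genes they mark bases that differ from *A2m*.
A2m: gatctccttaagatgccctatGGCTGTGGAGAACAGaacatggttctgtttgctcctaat
Mug1: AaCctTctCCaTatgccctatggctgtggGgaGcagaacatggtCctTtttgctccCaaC
Mug2: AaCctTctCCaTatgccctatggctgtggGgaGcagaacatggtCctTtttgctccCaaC
Pzp: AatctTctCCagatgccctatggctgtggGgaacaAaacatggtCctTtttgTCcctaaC
Over these 60 bases *Mug1* and *Mug2* were the same as each other and differed from *A2m* at 12 positions, and *Pzp* differed from it at 11. Over the aligned coding sequence, the identity to *A2m* was 69.7% for *Mug1*, 69.3% for *Mug2* and 65.9% for *Pzp*. The longest run shared with *A2m* was 41 bases, in *Mug2*, against 29 in *Mug1* and 23 in *Pzp*. Of the 7066 windows of 50 bases in the annotated *A2m* transcripts, 0 occurred in a transcript of another gene, and 0 of its 7021 exonic bases overlapped another gene. The count of *A2m* therefore has no annotated gene to share reads with at this length.

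Total counts ranged from 9666985 to 16686525 fragments per library. The *Zbtb24* count, taken over all exons of the gene, does not check the loss of a segment, and it was higher in the libraries labelled KO, at 40.9 and 37.7 against 14.1 and 16.4 cpm (counts scaled to library size) at 1000 cells and 39.7 and 37.3 against 19.5 and 20.3 cpm at 100 cells (edgeR quasi-likelihood test, log2 ratios 1.37 and 0.91, adjusted p = 4.33e-11 and 0.00111). The genotype is accordingly given as labelled, and KO and WT stand for libraries labelled so throughout. *Cdca7*, a gene that ZBTB24 is known to activate, was lower in the libraries labelled KO, by a log2 ratio of -1.74 at 1000 cells and -1.46 at 100 cells (adjusted p = 2.12e-17 and 4.42e-05). The summed level of 8 ES cell markers, of which *Dppa5a* and *Tdgf1* made up the most, was between 5339 and 7010 cpm in all libraries. Of the 8, 5 were called higher and 2 lower at 1000 cells, against 20.9% and 20.6% of all tested genes, and 4 higher and 1 lower at 100 cells, against 17.6% and 16.6%. Both libraries of 100 cells labelled KO stood apart by transcripts of brain cell types. The summed level of 6 oligodendrocyte markers was 256 to 263 cpm there and 43.0 to 53.6 cpm in the other 6 libraries. Without *Cnp*, 1 of the 6 markers, the sum was 10.6 to 11.6 cpm in the WT libraries. It was 22.4 to 22.7 cpm in the KO libraries of 1000 cells and 205 to 206 cpm in those of 100 cells. The summed level of 5 astrocyte markers was 205 to 212 cpm in the KO libraries of 100 cells. It was 137 to 153 cpm in the KO libraries of 1000 cells and 74.0 to 89.0 cpm in the WT libraries. *Aldoc*, a glycolytic aldolase, carried most of it, and without *Aldoc* the sum was 59.02 to 62.4 cpm in the KO libraries of 100 cells and 23.5 to 27.7 cpm in the other 6 libraries. Replicates of each group differed by more than counting noise, with a chi-square per degree of freedom of 1.99 to 3.28 in 3 groups and 17.6 in WT libraries of 100 cells.

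*A2m* was counted 366 and 245 times in the WT libraries of 1000 cells and 1847 and 2210 times in the KO libraries of 1000 cells. In the libraries of 100 cells it was counted 282 and 366 times in WT and 1914 and 1854 times in KO. At these counts the counting error of a single library was between 2.13% and 6.39% of the count, and replicates of a group lay 0.977% to 6.39% apart after scaling. Scaled to library size, KO libraries stood at 144 and 153 cpm with 1000 cells and at 143 and 140.1 cpm with 100 cells. WT libraries stood at 21.2 and 20.05 cpm with 1000 cells and at 27.9 and 27.6 cpm with 100 cells. All 4 libraries labelled KO were high, all 4 labelled WT were low, and the groups did not overlap.

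**Figure D1:**
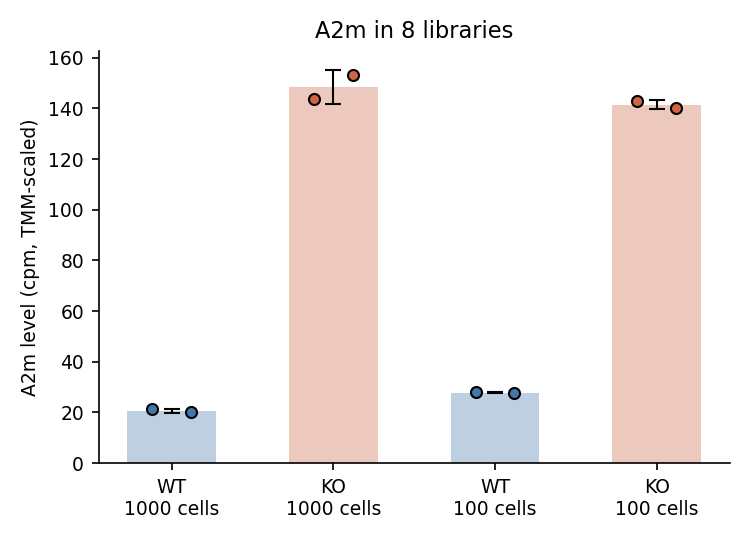
Level of *A2m* in cpm (counts scaled to library size by TMM) in the 4 groups. Points are libraries, bars are means and error bars are SD (n = 2). The 4 libraries labelled KO lie between 140.1 and 153 cpm and the 4 labelled WT between 20.05 and 27.9 cpm.

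The group means were 148 ± 6.70 cpm for KO against 20.6 ± 0.804 cpm for WT with 1000 cells, and 141 ± 1.93 cpm against 27.8 ± 0.192 cpm with 100 cells (SD, n = 2). The fitted KO to WT ratio was 7.17-fold at 1000 cells (log2 2.84, SE 0.085) and 4.94-fold at 100 cells (log2 2.31, SE 0.11). These ratios are the values on which the gene was chosen. The lowest KO library was 6.77 times as high as the highest WT library at 1000 cells and 5.02 times as high at 100 cells. In bulk libraries, more cells with *A2m* and more *A2m* RNA per cell cannot be told apart.

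Per kb of exon, the level of *A2m* with 1000 cells was 21.1 ± 0.954 cpm for KO against 2.94 ± 0.115 cpm for WT, and with 100 cells 20.1 ± 0.274 cpm against 3.95 ± 0.0273 cpm (SD, n = 2). Among the 16697 tested genes with a known exon length, that placed it above 53.1% and 58.6% of genes in WT and above 84.7% and 83.9% in KO, at 1000 and 100 cells. A gene near the middle of the range in the libraries labelled WT thus stood among the more abundant ones in those labelled KO. The order of the group means was KO at 1000 cells, KO at 100 cells, WT at 100 cells and WT at 1000 cells.

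Comparisons of inputs within a genotype were not used to choose *A2m* and were tested. In KO, the level at 100 cells was 0.956 times that at 1000 cells (log2 -0.07, SE 0.0587), which did not pass the threshold (edgeR quasi-likelihood test, adjusted p = 0.366), whereas 52.1% of the 16816 tested genes passed it in that comparison. The 95% interval of this ratio was 0.883 to 1.04, so the KO level moved little beside its distance from WT. In WT, the level at 100 cells was 1.33 times that at 1000 cells (log2 0.41, SE 0.16), with both libraries of 100 cells above both of 1000 cells. That difference did not pass the threshold either (adjusted p = 0.278, unadjusted p = 0.0187), in a comparison where 0.827% of genes did. The adjusted p in WT passed in 1 fit of all 8 libraries (0.0336). It did not pass with other scalings, other filters or a replicate block (0.261 to 0.378), nor by DESeq2 (0.403). With a library left out, whether it passed depended on the library.

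The KO to WT ratio of *A2m* was smaller at 100 cells than at 1000 cells. The difference of the log2 ratios was -0.49 (SE 0.14), that is, the fold at 100 cells was 0.71 times that at 1000 cells. It is built from the ratios on which the gene was chosen and is given without a test. On the fitted values the WT level was higher at 100 cells by 0.41 and the KO level lower by 0.07 on the log2 scale.

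The rank of *A2m* by KO to WT ratio was taken among the 8368 genes whose mean reached 10 cpm. At 1000 cells it was rank 1, ahead of *Vldlr*, a receptor of the LDL receptor family, at a log2 ratio of 2.50, and *Tgfbi*, an extracellular matrix protein induced by TGF-beta, at 2.40. At 100 cells it was rank 16, between *Prnp* at 2.39 and *Ddit3* at 2.26. Genes above it there included *Mbp*, the myelin basic protein, at a log2 ratio of 6.24 and *Snap25*, a synaptic vesicle fusion protein, at 5.34, which are among the brain transcripts of those 2 libraries. By the mean of both log2 ratios it was rank 6 at 2.57, and by the smaller of both it was rank 2, after *Tgfbi*. Those ahead of it by the mean were *Mbp*, *Snap25* and 3 predicted genes, *Gm10801*, *Gm26870* and *Gm10800*, whose log2 ratios were 1.12 to 1.45 at 1000 cells and 4.34 to 4.97 at 100 cells. *Tgfbi* at 2.48 and *Ptgds* at 2.42 followed.

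**Figure D2:**
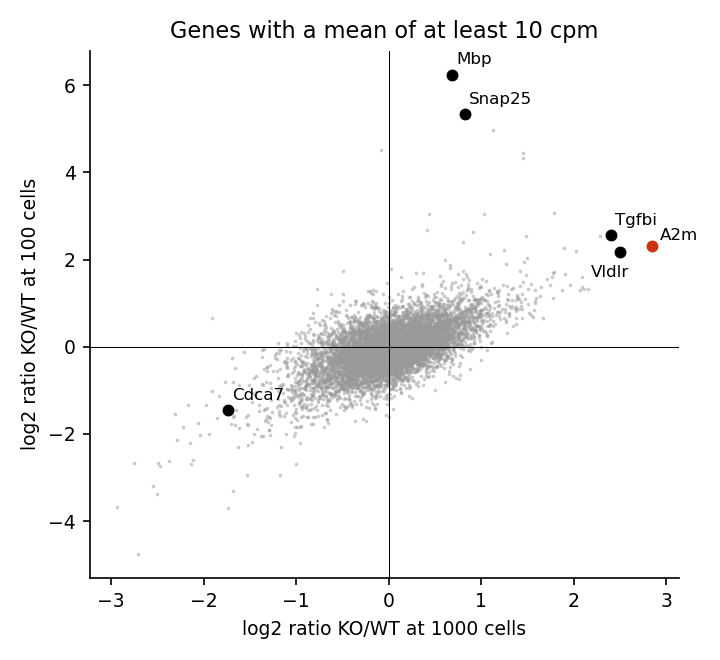
Log2 ratio of KO to WT at 1000 cells (x axis) against 100 cells (y axis), 1 point per gene, for the 8368 genes whose mean reached 10 cpm. *A2m* lies farthest to the right, at 2.84 and 2.31, beside *Vldlr* and *Tgfbi*, and *Mbp* and *Snap25* lie highest on the y axis, at 6.24 and 5.34.

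Without the minimum level, *A2m* was rank 294 of the 16816 tested genes by the mean of both log2 ratios. The minimum applies to the mean over all 8 libraries, so that genes such as *Tgfbi*, at 2.47 to 5.81 cpm in WT, passed it through their KO level.

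The surroundings of *A2m* were examined to see whether neighbours moved with it. The annotation places 12 genes of the table within 500 kb of *A2m*, 8 upstream and 4 downstream, of which 8 are protein-coding. They include *Pex26*, a peroxisomal membrane protein, *Usp18*, a protease that removes ISG15 from proteins, *Slc6a13* and *Slc6a12*, transporters of GABA and betaine, *Iqsec3*, a synaptic exchange factor for ARF proteins, and the relatives *Mug1* and *Mug2*. Levels were low throughout. The highest mean of any of them was 4.22 cpm (*Pex26*), 3 had no count in any library, 4 had counts but too few to be tested, and 5 were tested.

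At 1000 cells 0 of the 5 tested neighbours passed the threshold in either direction by the edgeR quasi-likelihood test, and 0 had an unadjusted p under 0.05, while 20.9% of all tested genes passed as higher and 20.6% as lower. DESeq2 called 0 as well. *Pex26* had 60 and 64 counts in KO and 78 and 43 in WT (log2 ratio 0.16, adjusted p = 0.612). *Slc6a13* had 52 and 41 counts in KO and 48 and 21 in WT (0.57, adjusted p = 0.124). Scaled to library size, *Pex26* did not separate the groups. *Slc6a13* did so narrowly, at 4.04 and 2.84 cpm in KO against 2.78 and 1.72 cpm in WT. *Usp18* had 7 and 4 counts in KO and 10 and 0 in WT (0.30, adjusted p = 0.823), and *Slc6a12* had 5 and 6 against 8 and 1 (0.42, adjusted p = 0.726). *Iqsec3*, which starts 162 kb upstream of *A2m* and is the nearest tested gene, had 0 and 0 counts in KO and 0 and 1 in WT, too few for a ratio.

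At 100 cells 1 of the 5 was called higher and 1 lower, while 17.6% of all tested genes were called higher and 16.6% lower. *Iqsec3* rose, with 28 and 28 counts in KO and 1 and 1 in WT, a ratio of summed counts of 24.6 (95% exact interval 6.49 to 208, counting error only, edgeR adjusted p = 0.00154). It was at most 1 count in each library of 1000 cells, and was thus raised only in the 2 libraries with the most brain transcripts. The part of these transcripts in its change was not tested. *Slc6a12* fell, with 0 and 0 counts in KO and 17 and 3 in WT, at least 7.60-fold lower against a floor of 3 counts over the group (edgeR adjusted p = 0.0288). Its call was lost when either KO library of 100 cells was left out (adjusted p = 0.0640 and 0.0632) or with no filter beyond 1 count (0.0511). Values for *Pex26* (log2 ratio -0.36, adjusted p = 0.307), *Slc6a13* (-0.68, adjusted p = 0.148) and *Usp18* (-0.59, adjusted p = 0.686) were negative at 100 cells and positive at 1000 cells.

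*Mug1*, 159 kb downstream, had 0 and 2 counts in the KO libraries of 1000 cells, 1 and 0 in those of 100 cells and 0 in all 4 WT libraries. *Mug2* had a single count, in KO replicate 1 of 100 cells. Counts of up to 2210 at *A2m* stood beside at most 2 at its nearest relatives in the same libraries. The pseudogene *Mug-ps1* had none. The counts of *Mug1*, *Mug2* and *Mug-ps1* are uncertain. Of their windows of 50 bases, 26.5%, 50.5% and 42.8% occur in other annotated genes. Reads that fit more than 1 gene were discarded, so these low counts do not show that the relatives were silent.

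**Figure D3:**
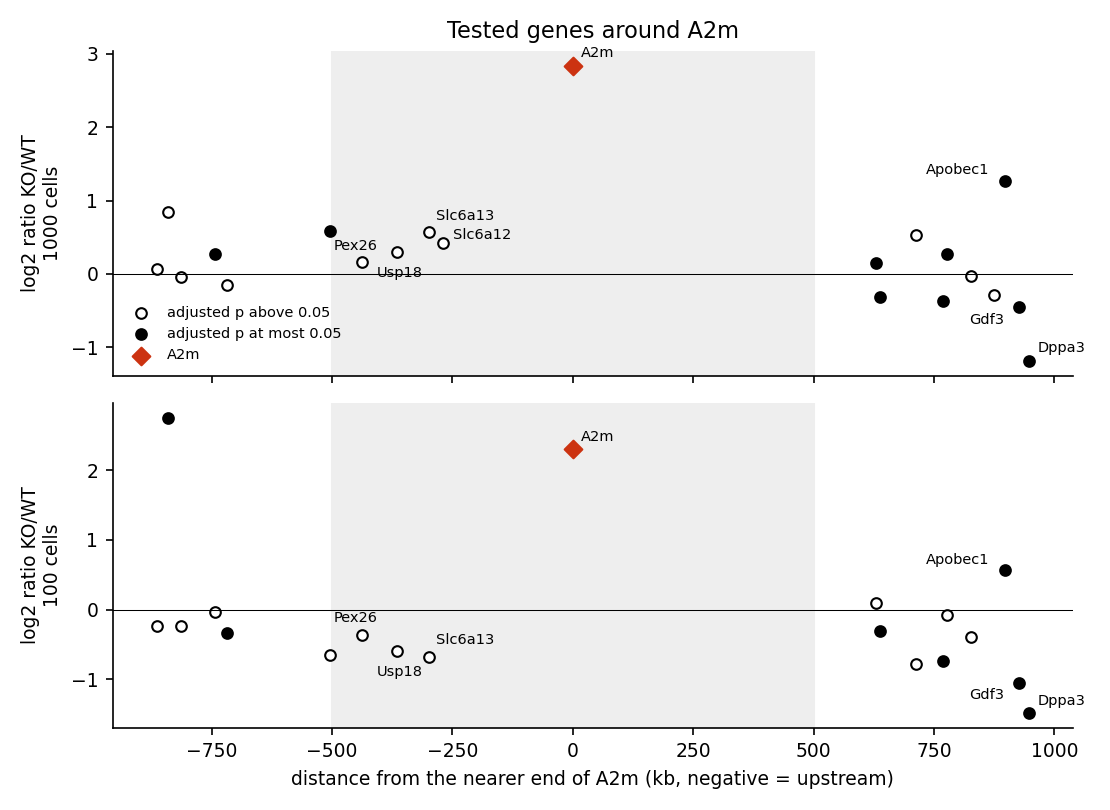
Log2 ratio of KO to WT (y axis) against distance from the nearer end of *A2m* in kb (x axis) for the tested genes within 1000 kb, at 1000 cells (top) and 100 cells (bottom), with 500 kb on each side in grey. Filled points passed the threshold, open points did not, and genes with at most 3 counts in a group of 2 libraries (such as *Iqsec3* at both inputs and *Slc6a12* at 100 cells) are not drawn. *A2m*, for which no test is given, lies at 2.84 and 2.31, above all others at 1000 cells and below *Slc25a18* at 100 cells. It was chosen by these ratios, so its height here is a description only.

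Within 1000 kb, 21 genes were tested. At 1000 cells 5 of them (23.8%) were called higher and 4 (19.0%) lower, against 20.9% and 20.6% of all genes, and at 100 cells 3 (14.3%) and 7 (33.3%), against 17.6% and 16.6%. *Mical3*, an actin-oxidizing enzyme 504 kb upstream and thus just outside the first window, was higher at 1000 cells (log2 ratio 0.59, adjusted p = 0.00365, and 0.0517 by DESeq2) and had a log2 ratio of -0.65 at 100 cells (adjusted p = 0.0753). *Slc25a18*, a mitochondrial glutamate carrier 841 kb upstream, was the gene with the highest log2 ratio of these at 100 cells, after *Iqsec3* (2.75, adjusted p = 0.0190), with a log2 ratio of 0.85 at 1000 cells (adjusted p = 0.393). *Apobec1*, a cytidine deaminase that edits RNA, was higher at both inputs, with 20.8 and 20.5 cpm in KO and 9.38 and 7.53 cpm in WT at 1000 cells (log2 ratio 1.27, adjusted p = 1.61e-08) and a log2 ratio of 0.56 at 100 cells (adjusted p = 0.0403). *Dppa3*, a germ cell and oocyte protein that limits maintenance of DNA methylation, was lower at both, with 64.7 and 64.5 cpm in KO and 150 and 143 cpm in WT at 1000 cells (log2 ratios -1.18 and -1.48, adjusted p = 8.97e-14 and 0.000138). *Gdf3*, a growth factor of the TGF-beta family, was lower too (-0.46 and -1.05, adjusted p = 4.57e-07 and 0.000442), as were *Phc1*, a Polycomb subunit (-0.32 and -0.31, adjusted p = 5.41e-05 and 0.0416), and *Rimklb* (-0.37 and -0.74, adjusted p = 0.000616 and 0.00317). The calls at 100 cells were lost without either KO library for *Apobec1* (adjusted p = 0.290 and 0.320), *Slc25a18* (0.224 and 0.0766) and *Phc1* (0.479 and 0.463), and without KO replicate 2 for *Rimklb* (0.0635). By DESeq2, *Apobec1* (0.144) and *Slc25a18* (0.0747) were not called at 100 cells either, and without WT replicate 2 the log2 ratio of *Slc25a18* was 3.48. Genes of this interval moved in both directions. At 1000 cells none of the 21 had a log2 ratio as high as that of *A2m*. As *A2m* was chosen by its ratio, that is a description and not a result about its surroundings.

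Within 5000 kb, 103 genes were tested, of which 19.4% rose and 19.4% fell at 1000 cells, while 21.4% rose and 17.5% fell at 100 cells. On the whole of chromosome 6, 776 genes were tested, of which 24.4% were higher and 16.9% lower at 1000 cells, against 20.9% and 20.6% of all genes, and 20.6% and 14.7% at 100 cells, against 17.6% and 16.6%. The median log2 ratio of chromosome 6 was 0.05 at 1000 cells and 0.04 at 100 cells, and that of all genes was 0.00 at both to 2 decimals.

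The nearest relatives and partners of alpha-2-macroglobulin were then followed by role, from lists chosen with earlier results of these data known. Of the other macroglobulin and thioester proteins, 10 of the 12 listed genes were in the table by symbol and 4 besides *A2m* were tested. At 1000 cells 1 of the 4 was called higher and 0 lower, beside 20.9% and 20.6% of all genes, and at 100 cells 2 were called higher and 1 lower, beside 17.6% and 16.6%. The median log2 ratio of the 4 was 0.63 at 1000 cells, or -0.06 without *C4b*, which was at the floor there, and 0.69 at 100 cells. *Pzp*, a relative that was expressed, had 7.85 and 6.85 cpm in KO against 7.35 and 8.02 cpm in WT with 1000 cells, and 7.31 and 7.71 cpm against 8.41 and 8.45 cpm with 100 cells. Neither log2 ratio of *Pzp* passed, at -0.06 and -0.21 (adjusted p = 0.819 and 0.438). Per kb of exon, *Pzp* was at 1.15 to 1.31 cpm in every group mean, so the level of *A2m* was 2.94 cpm beside 1.20 in WT and 21.1 cpm beside 1.15 in KO at 1000 cells.

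*C3*, the central complement component, rose at both inputs, from 12 and 10 counts in WT to 27 and 24 in KO at 1000 cells and from 12 and 15 to 49 and 47 at 100 cells (log2 ratios 1.31 and 1.59, adjusted p = 0.0133 and 0.00771). *Cd109*, a membrane-bound member of the family that binds TGF-beta, fell at 100 cells (-1.58, adjusted p = 0.00276). *C4b*, complement component 4B, had 0 counts in WT and 13 in KO at 100 cells, at least 3.8-fold higher (adjusted p = 0.0474), and 34.6% of its windows of 50 bases occur in other genes, so its count is uncertain. At 100 cells the calls of *C3* (adjusted p = 0.109 and 0.0992) and *C4b* (0.0556 and 0.320) were lost without either KO library, and at 1000 cells that of *C3* was lost without KO replicate 1 (0.106) or WT replicate 1 (0.0747). DESeq2 called neither *C3* at 1000 cells (0.116) nor *C4b* at 100 cells (0.104).

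Among the 8 genes for uptake of alpha-2-macroglobulin complexes and their helpers, 2 passed as higher and 2 as lower with 1000 cells, and 3 and 2 with 100 cells, where 20.9% and 20.6% of all genes passed at 1000 cells and 17.6% and 16.6% at 100 cells. *Lrp1*, the receptor that clears the complexes, had 9.79 and 8.24 cpm in KO against 4.92 and 7.45 cpm in WT with 1000 cells, and 14.3 and 12.8 cpm against 7.22 and 9.36 cpm with 100 cells. KO libraries lay above WT libraries at each input (log2 ratios 0.57 and 0.66, adjusted p = 0.0217 and 0.0275). The calls of *Lrp1* were lost by DESeq2 (adjusted p = 0.141 and 0.0879), at 1000 cells also with scaling by total count alone (0.0510) or 1 fit of all libraries (0.0586), and without KO replicate 1 (0.142) or WT replicate 1 (0.374) at 1000 cells and either KO library (0.290 and 0.164) at 100 cells. *Vldlr*, which binds overlapping ligands, was the gene next to *A2m* in rank at 1000 cells, with 25.3 and 25.0 cpm in KO against 4.34 and 4.58 cpm in WT (log2 ratio 2.50, adjusted p = 4.98e-14). At 100 cells *Vldlr* had 13.3 and 13.0 cpm in KO and 1.38 and 4.07 cpm in WT (2.16, adjusted p = 0.00182), and its log2 ratio was 3.20 without WT replicate 2.

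*Lrp2*, the large endocytic receptor megalin, was lower at both inputs, with 6.57 and 8.24 cpm in KO against 17.4 and 16.0 cpm in WT at 100 cells (log2 ratios -1.13 and -1.22, adjusted p = 3.06e-07 and 0.00164). *Lrpap1*, the chaperone that keeps these receptors free of ligand on their way to the surface, was also lower, with 51.3 and 42.6 cpm in KO and 89.0 and 88.5 cpm in WT at 1000 cells (-0.92 and -0.95, adjusted p = 6.36e-10 and 0.000406). *Lrp1b* was called higher at 100 cells (2.07, adjusted p = 0.0323). That call of *Lrp1b* was lost by DESeq2 (adjusted p = 0.103) and without either KO library (0.379 and 0.0748), and without WT replicate 1 its log2 ratio was 2.85. The median log2 ratio of the 8 genes was 0.04 at 1000 cells and 0.14 at 100 cells.

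Of the proteases that alpha-2-macroglobulin can trap, 9 of 20 were tested, of which 2 were called higher and 1 lower at 1000 cells, beside 20.9% and 20.6% of all genes. *Ctsb*, the lysosomal protease cathepsin B, was higher at 1000 cells (log2 ratio 0.47, adjusted p = 1.07e-06), as was *Adamts4*, an aggrecanase, at low counts (1.24, adjusted p = 0.0475), and *F2*, prothrombin, was lower (-1.80, adjusted p = 0.000600). None passed at 100 cells by edgeR, where 17.6% and 16.6% of all genes did, and 0 of the 9 had an unadjusted p under 0.05. Of the 10 cytokines and growth factors that it can bind, 5 were tested, with 0 higher and 1 lower at 1000 cells and 1 of each at 100 cells. *Pdgfa*, a ligand of the PDGF alpha receptor, was lower at both inputs (-0.34 and -0.87, adjusted p = 0.0464 and 0.00467), with 26.1% of its exonic bases overlapped by a gene on the other strand in counts that ignored strand. *Tgfb1* was higher at 100 cells (1.42, adjusted p = 0.00676). Without 1 library, calls were lost for *Adamts4* (either KO library or WT replicate 2, adjusted p = 0.192, 0.0980 and 0.174), for *Pdgfa* at 1000 cells (KO replicate 2 or either WT library, 0.310, 0.180 and 0.0693) and, without KO replicate 1 of 100 cells, for *Pdgfa* (0.128) and *Tgfb1* (0.0904). DESeq2 called neither *Adamts4* (0.215) nor *Pdgfa* (0.212) at 1000 cells.

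Of 17 other protease inhibitors tested, 4 rose and 4 fell at 1000 cells, beside 20.9% and 20.6% of all genes, while 1 rose and 5 fell at 100 cells, beside 17.6% and 16.6%. Their median log2 ratios were 0.14 and -0.09. *Timp2*, an inhibitor of matrix metalloproteases, was higher at both inputs (0.86 and 1.24, adjusted p = 0.00428 and 0.00508). *Wfdc2* was lower at both (-0.35 and -0.39, adjusted p = 0.00104 and 0.0273). At 100 cells the call was lost without KO replicate 2 for *Timp2* (adjusted p = 0.0522) and without either KO library for *Wfdc2* (0.285 and 0.338). By DESeq2, *Timp2* at 1000 cells (0.0604) and *Wfdc2* at 100 cells (0.0603) were not called.

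In rat liver *A2m* is known as an acute phase gene that responds to IL-6 type cytokines through STAT3, the pathway by which LIF sustains mESCs. Of 14 tested genes of that pathway and of the acute phase, 4 rose and 3 fell at 1000 cells, beside 20.9% and 20.6% of all genes, while 3 rose and 1 fell at 100 cells, beside 17.6% and 16.6%. *Socs3*, the feedback inhibitor that STAT3 induces, was higher at both inputs, with 45.4 and 35.6 cpm in KO against 25.6 and 24.8 cpm in WT at 1000 cells (log2 ratios 0.68 and 1.05, adjusted p = 8.42e-06 and 0.000770). *Jak1*, a kinase of these receptors, was higher as well (0.33 and 0.51, adjusted p = 0.00263 and 0.00781). *Stat3* itself (0.26, adjusted p = 0.00877) and *Il6st*, the shared receptor subunit gp130 (0.33, adjusted p = 0.0164), passed at 1000 cells, and *Cebpb*, a transcription factor of the acute phase, at 100 cells (0.97, adjusted p = 0.00990). Leaving out either KO library of 100 cells ended the calls of *Jak1* (adjusted p = 0.113 and 0.197) and *Cebpb* (0.108 and 0.151) there. At 1000 cells *Stat3* was no longer called without KO replicate 2 (0.0512) or WT replicate 1 (0.0997), nor *Il6st* without WT replicate 1 (0.382). Neither was called with scaling by total count alone (0.0820 and 0.0785) or in 1 fit of all libraries (0.0553 and 0.130), nor *Il6st* by DESeq2 (0.101).

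In the same list, the LIF receptor gene *Lifr* passed at neither input (-0.04 and -0.18, edgeR adjusted p = 0.746 and 0.395). *Cebpd*, another transcription factor of the acute phase, was lower at both inputs (-1.34 and -3.17, adjusted p = 0.0243 and 0.0121). The serum amyloid gene *Saa3* was lower at 1000 cells (-1.75, adjusted p = 6.70e-05). *Cp*, ceruloplasmin, had 1 and 0 counts in KO and 7 and 12 in WT at 1000 cells (adjusted p = 0.00803). These calls were lost for *Cebpd* without either KO library or WT replicate 1 of 1000 cells (adjusted p = 0.101, 0.0748 and 0.0901) and without KO replicate 1 of 100 cells (0.0518), and for *Cp* without KO replicate 2 (0.0755) or WT replicate 2 (0.0691). *Cebpd* at 1000 cells was not called by DESeq2 (0.160) or in 1 fit of all libraries (0.105), and its log2 ratio at 100 cells was -2.10 without WT replicate 1. The median of the 14 was 0.14 at 1000 cells and 0.23 at 100 cells. The part of this pathway in the *A2m* level was not tested.

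**Figure D4:**
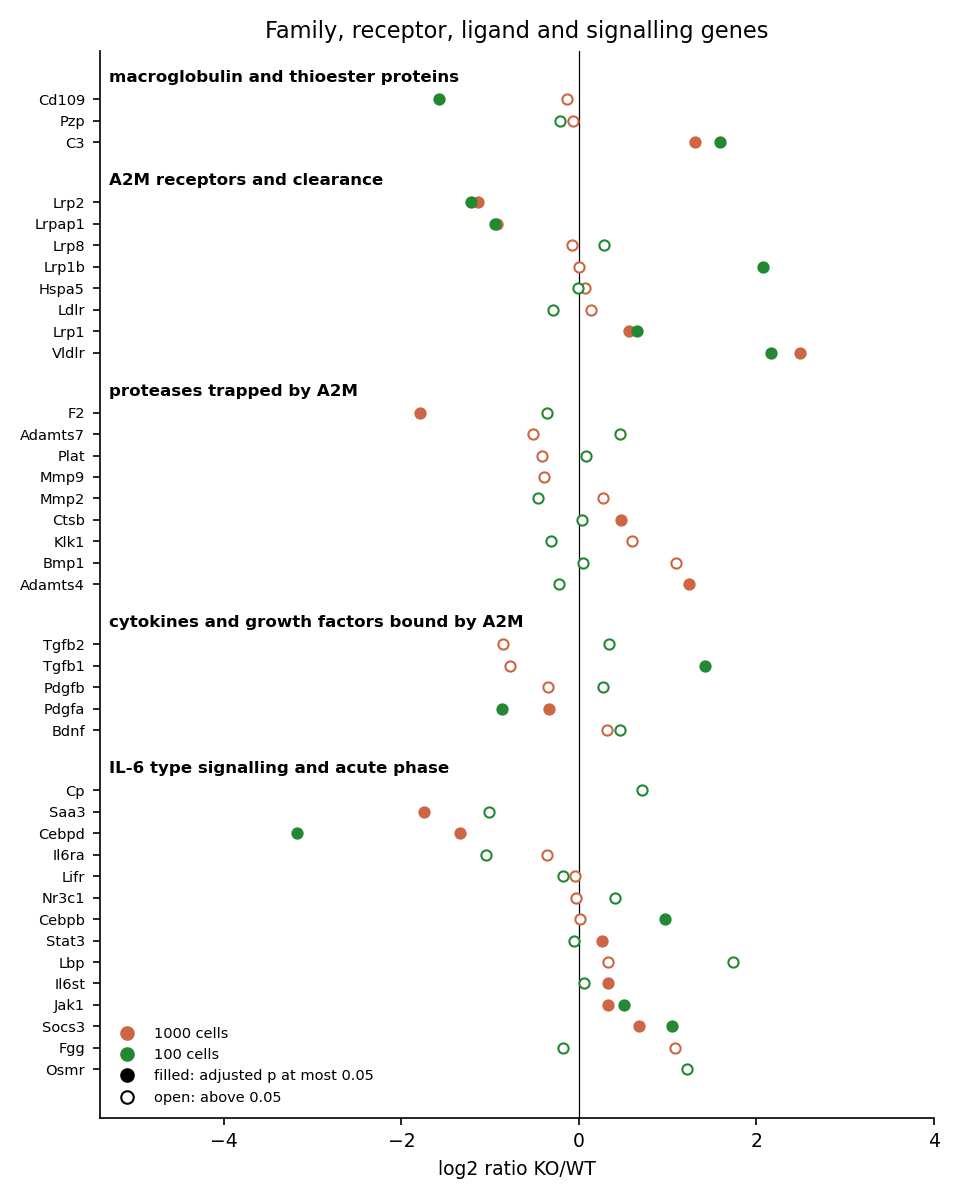
Log2 ratio of KO to WT (x axis) at 1000 cells (orange) and 100 cells (green) for the tested genes of 5 lists, with filled points at an adjusted p of at most 0.05. Values with at most 3 counts in a group of 2 libraries are not drawn, and *C4b* is left out for that reason. *Vldlr* lies farthest to the right, at 2.50 and 2.16, and the lists hold genes on both sides of 0.

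Markers of cell types that could bring *A2m* RNA were read beside it. Of 8 hepatocyte markers 3 were tested, with a summed level of 15.5 to 17.8 cpm in WT and 21.9 to 24.2 cpm in KO libraries, or 2.03 to 3.62 and 2.04 to 2.84 cpm without *Apoa2*. *Apoa2*, an apolipoprotein, was called higher at both inputs, while *Alb*, the albumin of hepatocytes, had 0 counts in 6 libraries and 5 and 3 in the KO libraries of 100 cells, and *Fgb*, a fibrinogen chain, had 0 in all 8. Of 11 primitive and visceral endoderm markers 8 were tested, and the summed level was 7.30 to 9.79 cpm in 6 libraries and 21.04 to 22.4 cpm in the KO libraries of 100 cells, where 2 passed as higher and 1 as lower, beside 17.6% and 16.6% of all genes, while by edgeR 0 of the 8 passed at 1000 cells and 1 had an unadjusted p under 0.05. *Ttr*, transthyretin, had 0 counts in those 6 libraries and 141 and 143 in the other 2, where the sum without it was 10.5 to 11.6 cpm. In the KO libraries of 1000 cells the endoderm sum was 7.30 and 8.38 cpm, against 7.39 to 9.79 cpm in WT. Some of these markers were near the floor, such as *Sox17*, with 3 and 0 counts in KO and 6 and 6 in WT at 1000 cells.

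Of the brain markers, 1 of 6 for oligodendrocytes, 1 of 5 for astrocytes and 3 of 6 for neurons were called higher at 1000 cells, beside 20.9% of all genes. At 100 cells 6, 4 and 5 of them were, beside 17.6%, and 1 neuron marker was lower at each input. The level of *A2m* was about as high in the KO libraries of 1000 cells as in those of 100 cells. The oligodendrocyte markers without *Cnp* summed to 22.4 to 22.7 cpm and 205 to 206 cpm there, against 10.6 to 11.6 cpm in WT. The neuron markers summed to 471 to 499 cpm in WT and 385 to 490 cpm in KO. *Stmn2* made up most of this, and without it the other 5 summed to 6.37 to 8.01 cpm in WT, 9.76 to 10.02 cpm in KO at 1000 cells and 119.8 to 126 cpm in KO at 100 cells. Of 4 tested trophoblast markers 1 rose at 1000 cells and 2 fell at 100 cells, with sums of 13.8 to 19.6 cpm over all libraries. Of 4 fibroblast markers 1 fell at 1000 cells and 1 rose at 100 cells, with sums of 2.91 to 7.18 cpm. Of 3 macrophage markers 1 rose at each input, with sums of 15.5 to 21.1 cpm in WT and 22.01 to 32.2 cpm in KO, nearly all from *Cd68*. These counts stand beside 20.9% and 20.6% of all genes at 1000 cells and 17.6% and 16.6% at 100 cells. The part of any of these cell types in the *A2m* level was not tested.

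The genes whose pattern over the 8 libraries was most like that of *A2m* were found by the root mean square distance of log2(cpm + 1), centred on each gene's mean, among 8367 other genes whose mean reached 10 cpm. The 10 nearest lay at distances of 0.378 to 0.460 on this log2 scale, on 8 chromosomes, and 0 genes were nearer than 0.3. Among them were *Ddit3*, a transcription factor of the stress response (0.378), *Pgm1*, a phosphoglucomutase (0.382), *Nxt2*, an RNA export factor (0.392), *Tgfbi* (0.416), *Rpph1*, the RNA of RNase P (0.418), *Ndufa4l2*, a mitochondrial protein induced by hypoxia (0.434), *Bag2*, a co-chaperone (0.438), *Gm47283*, a predicted gene of the Y chromosome (0.439) and *Bhlhe40*, a transcription repressor (0.460). Only *Bhlhe40* lies on chromosome 6.

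*A2m* was rank 1 at 1000 cells among the genes searched, so the ratios of these 10 genes were bound to be smaller there. They were 3.39-fold for *Bhlhe40* to 5.29-fold for *Tgfbi*, against 7.17-fold for *A2m*. At 100 cells their ratios ran from 2.48-fold for *Rpph1* to 5.91-fold for *Tgfbi*. Without WT replicate 2 of 100 cells, the log2 ratio there rose from 2.56 to 3.35 for *Tgfbi* and from 2.19 to 2.77 for *Pgm1*. *Ddit3*, the nearest, had 35.98 and 39.3 cpm in KO against 9.49 and 10.9 cpm in WT with 1000 cells, and 47.5 and 50.1 cpm against 8.21 and 11.4 cpm with 100 cells. *Bhlhe40*, like *A2m*, kept its KO level between inputs, with 123 and 109 cpm at 1000 cells and 116 and 118 cpm at 100 cells.

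Pearson correlations of the 9 genes named here with *A2m* were 0.946 to 0.994 over the 8 libraries, which fall into 2 genotypes, and 21 of the 8367 genes were above 0.99. The counts of *Rpph1* and *Gm47283* are uncertain, since 68.1% and 40.5% of their windows of 50 bases occur in other annotated genes. *Pgm1* overlaps a gene on the other strand over 13.6% of its exonic bases. Other annotated genes overlap 10.9% of those of *Ddit3*.

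**Figure D5:**
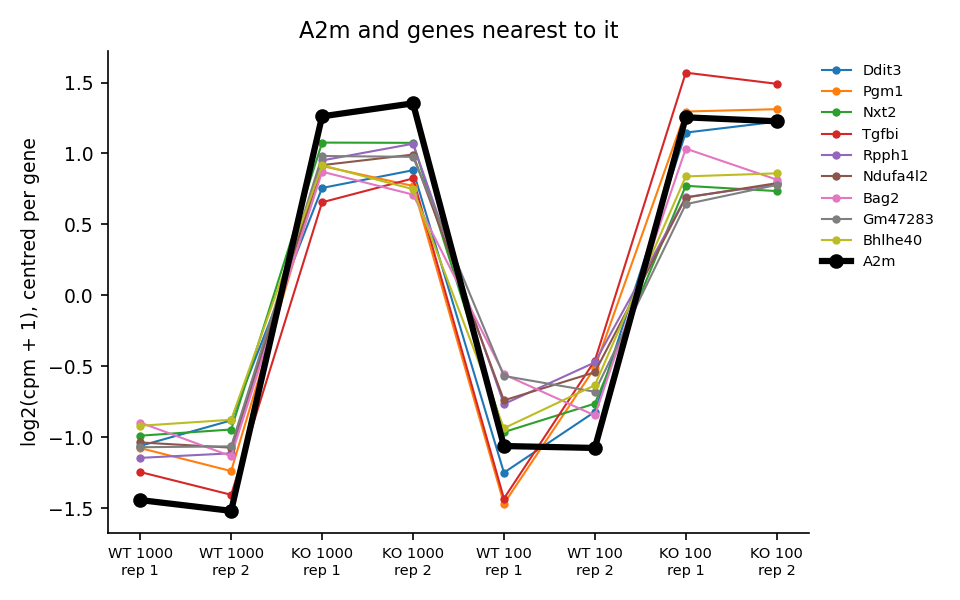
Profiles of *A2m* (black) and 9 of the 10 genes nearest to it over the 8 libraries, as log2(cpm + 1) centred on each gene's mean (y axis). All genes drawn are above 0 in the 4 libraries labelled KO and below 0 in the 4 labelled WT. The swing of *A2m* between genotypes at 1000 cells is the widest, which follows from its rank 1 there.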

How the data were processed

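The deposited table holds raw counts of fragments per gene. The authors removed ribosomal reads with Bowtie2 2.1.0, mapped the rest to mm10 with TopHat 2.0.10 and counted with HTSeq 0.6.1 on GENCODE M4 genes (union mode, no strand, multi-mapped reads discarded), so near-identical copies lose counts and strand partners can share them. Positions and sequences came from GENCODE M21 on GRCm38, and 42425 of 43309 identifiers matched without their version. By these positions, genes on the other strand overlap 20.7% of the exonic bases of *Cebpb*, 15.0% of those of *Cebpd* and 12.8% of those of *Ctsb*.

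Testing covered the 16816 genes that reached 10 counts in any library, with edgeR 4.0.16 in R 4.3.3 (quasi-likelihood, TMM scaling, two-sided, Benjamini-Hochberg over all of them, threshold 0.05). Genotype contrasts used the 4 libraries of an input, input contrasts the 4 of a genotype, and the difference of the genotype ratio between inputs all 8. Fits were tested on simulated data. Intervals and the floor of 3 counts cover counting error only, since PCR reads without molecular identifiers are not independent molecules.

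The gene, its lists, window, tests and named genes (tested genes within 500 kb, tested list members and the 10 genes most like *A2m*) were chosen with earlier results of these data known. Genes beyond 500 kb, those beside *A2m* in rank and the examples taken from the lists were chosen after their values were seen. Alternatives were DESeq2 1.42.0 or its size factors, total count alone, other filters, a joint fit, a replicate block, other windows and each library left out. A single gene of the 10 most like *A2m* is not reported here.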

Additional observations from a re-analysis of the deposited data

How the results depend on the processing

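The log2 ratio of *A2m* stayed between 2.76 and 2.89 at 1000 cells and between 2.30 and 2.35 at 100 cells over 11 alternatives each. At 100 cells it moved by more than the replicate spread with at least 10 counts in every library (2.33) and in 1 fit of all 8 libraries (2.35). The change between inputs in KO kept its direction and stayed short of the threshold in all 11 alternatives. In WT it passed in 1 fit of all libraries (0.43). Leaving out a library gave 0.38 to 0.45, and whether the WT change then passed depended on which library was left out. A library left alone in its group was taken to vary like those of the other group. The difference of the KO to WT ratio between inputs, described without a test, ranged from -0.55 to -0.45 with a library left out.

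Called neighbours at 1000 cells were 9 within 1000 kb and 0 to 1 with a library left out (*Slc6a13*, in 2 of the fits). At 100 cells there were 1 with no filter beyond 1 count, 0 with at least 10 counts in every library, where fewer genes were tested, 1 within 250 kb, 10 within 1000 kb and 1 to 2 with a library left out. The rank of *A2m* was 294 among all tested genes and 6 to 8 with a library left out, and, chosen after seeing the data, 1 on the ratio at 1000 cells alone and 16 on that at 100 cells alone. By Pearson correlation 1, and with a minimum of 1 cpm 6, of the 10 most alike genes were shared. Why these values moved was not tested.

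Of 70 called values of named genes, 44 kept the call in every alternative, 26 lost it in some and 0 changed sign. With a library left out, values that were not called changed sign for *Usp18* (-0.51 to 5.45 at 1000 cells, -1.23 to 1.08 at 100 cells), *Slc6a12* (-0.20 to 2.17 at 1000 cells) and *Pzp* (-0.15 to 0.037 at 1000 cells). Scaling by total count alone shifted the median of all genes by -0.09 at 1000 cells. Replicate numbers are shared by the groups but no label ties them to a clone or batch: replicate differences correlated between groups at -0.125 to 0.172 over 8368 genes. With the replicate block, the ratios of *A2m* were 2.84 and 2.31, the input changes -0.06 in KO and 0.41 in WT and the difference between inputs -0.49, with 0 and 2 called neighbours, and calls over all genes went from 6979 to 7426, from 5756 to 6433, from 8753 to 8756, from 139 to 285 and from 2745 to 2684 in these comparisons. With 2 libraries a group and under 5 cpm at each neighbour, small changes there were not detectable at this depth.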
